A study of Mus musculus with 24 samples.

Results

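Thoracic aortas of 8 mice fed celecoxib and 8 mice fed rofecoxib were compared, 16 of the 24 RNA sequencing libraries in the series. The 16 were chosen by the drug named in their sample labels, and every expressed gene was compared between them. All mice were male wild-type C57BL/6 animals aged 10 to 12 weeks. The celecoxib group received 100 mg/kg/day and the rofecoxib group 50 mg/kg/day in regular chow for 3 weeks, and a control group of 8 mice ate the same chow with no drug. Every mouse in the 3 groups, controls included, was injected intraperitoneally with 10 µg/kg interleukin-1beta (IL-1beta) and killed 4 hours later, at zeitgeber time 11. No library from an aorta without the cytokine was analysed here. The doses of the 2 drugs differ, so drug and dose cannot be told apart in this comparison.

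Celecoxib and rofecoxib are selective inhibitors of cyclooxygenase-2, the inducible enzyme that turns arachidonic acid into the precursor of prostaglandins, prostacyclin and thromboxane. Both are diaryl heterocycles. Celecoxib carries a sulfonamide group on a pyrazole core, and rofecoxib a methylsulfone group on a furanone core. In the vessel wall the enzyme is induced by cytokines such as IL-1beta, and prostacyclin made by endothelium and smooth muscle relaxes the vessel and restrains platelets. The thoracic aorta is wrapped in perivascular fat with brown-like features, and its outer layer holds fibroblasts, leukocytes and nerves.

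The 16 libraries each summed to between 21669139 and 21700121 counts, and all 24 totals lay within 0.1446% of the lowest. Aortic tissue was present in every one: Acta2, Myh11, Tagln and Cnn1, which mark contractile smooth muscle, and Pecam1 and Cdh5, which mark endothelium, were detected in all 16 libraries. Markers of fat (Adipoq, Plin1, Ucp1) were detected in all 16 as well. Marker levels below are the mean log2 CPM (counts scaled to a common library size) over a list of marker genes. The general adipocyte level ran from 5.12 to 6.76 (median 6.31) with celecoxib, from 5.81 to 7.69 (median 7.36) with rofecoxib and from 5.10 to 7.38 (median 6.35) in controls. The summed CPM of the 18 adipocyte genes was 2237 to 4982 with celecoxib and 2696 to 8549 with rofecoxib. The general adipocyte level was therefore higher in most rofecoxib libraries, with rofecoxib replicate 8 as the exception at 5.81, below its 7 fellows. The brown adipocyte level overlapped more. It was 4.08, 3.83 and 3.65 in rofecoxib replicates 1, 5 and 8, within the celecoxib range of 1.83 to 4.52. Rofecoxib replicate 8 also lay among the celecoxib libraries on the first principal component (26.4), which held 24.1% of the variance. The drug groups overlapped on that component: rofecoxib replicate 6 was at 1.99 and celecoxib replicates 1 and 7 at -3.34 and -0.57. Rofecoxib replicate 5 had a Schwann cell and neuronal level of 5.56, and the summed CPM of those 15 genes reached 1270.5 there. Celecoxib replicate 2 had a skeletal and cardiac muscle level of 2.60, against 1.17 or less in the other celecoxib libraries. In bulk tissue, fewer cells of a type and less RNA per cell cannot be told apart.

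**Figure D1:**
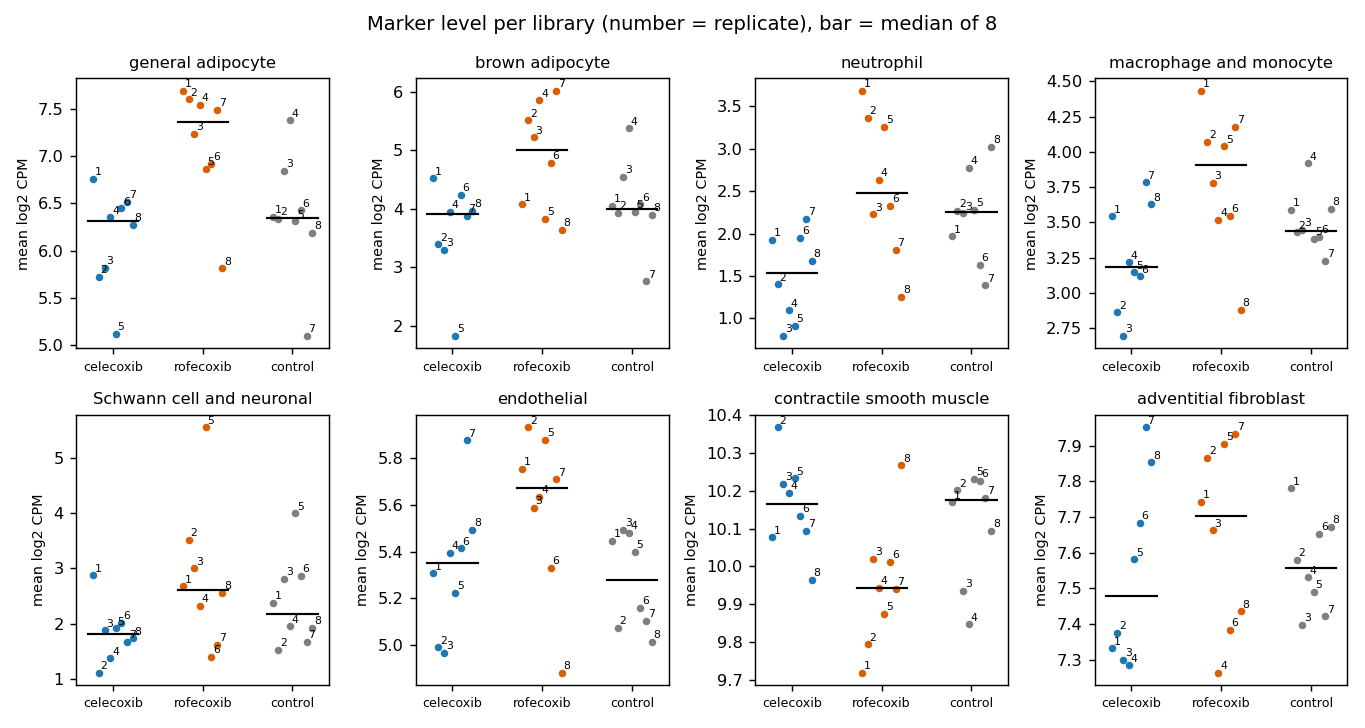
Marker level (mean log2 CPM over each list) in every library of the celecoxib, rofecoxib and control groups, with the replicate number beside each point and the median of 8 as a bar. The general adipocyte median is 6.31 with celecoxib and 7.36 with rofecoxib, and rofecoxib replicate 8 (5.81) lies among the celecoxib libraries there. Rofecoxib replicate 5 stands alone for Schwann cell and neuronal markers (5.56).

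Of 14528 genes tested, 710 (4.89%) differed between the drugs at an adjusted p under 0.05 (edgeR quasi-likelihood test, Benjamini-Hochberg adjustment over all genes tested). With celecoxib, 628 genes (4.32%) were lower and 82 (0.564%) were higher than with rofecoxib. The lower genes had the wider differences: their median log2 fold change (celecoxib minus rofecoxib) was -0.71, against 0.28 for the higher genes and 0.01 for all genes tested. Among the called genes, 177 lower and 3 higher genes differed by more than 2-fold, and 227 lower and 69 higher genes by less than 1.5-fold. At an unadjusted p under 0.05 there were 3344 genes (23%). Only 2 genes (0.0138%) had all 8 celecoxib libraries above all 8 rofecoxib libraries, and 6 (0.0413%) had all 8 below.

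The number of called genes depended on single libraries. The smallest adjusted p was 0.0181, 704 of the 710 called genes had an adjusted p of 0.035 or more, and a further 1054 genes lay between 0.05 and 0.1. Leaving out celecoxib replicate 2 or 3, or rofecoxib replicate 2, 3 or 7, left 0 genes called by the same edgeR test, and between 2824 and 3250 genes reached an unadjusted p under 0.05. Leaving out celecoxib replicate 4 or 5 or rofecoxib replicate 4 left 2, 1 and 3 genes, and leaving out rofecoxib replicate 1 left 240. Control libraries enter only the estimate of spread, the filter and the scaling, yet without control replicate 2 or 6 the counts were 447 and 363. Leaving out rofecoxib replicate 8 gave 1997, and leaving out rofecoxib replicates 5 and 8 together 1712. Replicates 1 to 4 alone gave 2073 called genes. Replicates 5 to 8 alone gave 0, with 896 genes at an unadjusted p under 0.05 by edgeR. A fit of only the 16 drug libraries, without the controls' share in the estimate of spread, called 0 genes by edgeR with 2816 at an unadjusted p under 0.05, while DESeq2 on all 24 libraries called 1439. With the adipocyte and skeletal muscle levels as covariates, 0 genes were called and 578 were at an unadjusted p under 0.05. In that fit 688 of the 710 kept their sign, with a median log2 fold change of -0.17 for the genes called lower and 0.18 for those called higher. The fat level and the drug move together in these libraries, so their parts in a gene's difference cannot be told apart. A call below means a call in the fit of all 24 libraries with no covariate, with these limits. Lower, higher and fell compare celecoxib with rofecoxib and do not say which group departed from controls. Counts of called list members stand against 4.32% of all genes tested called lower and 0.564% called higher.

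**Figure D2:**
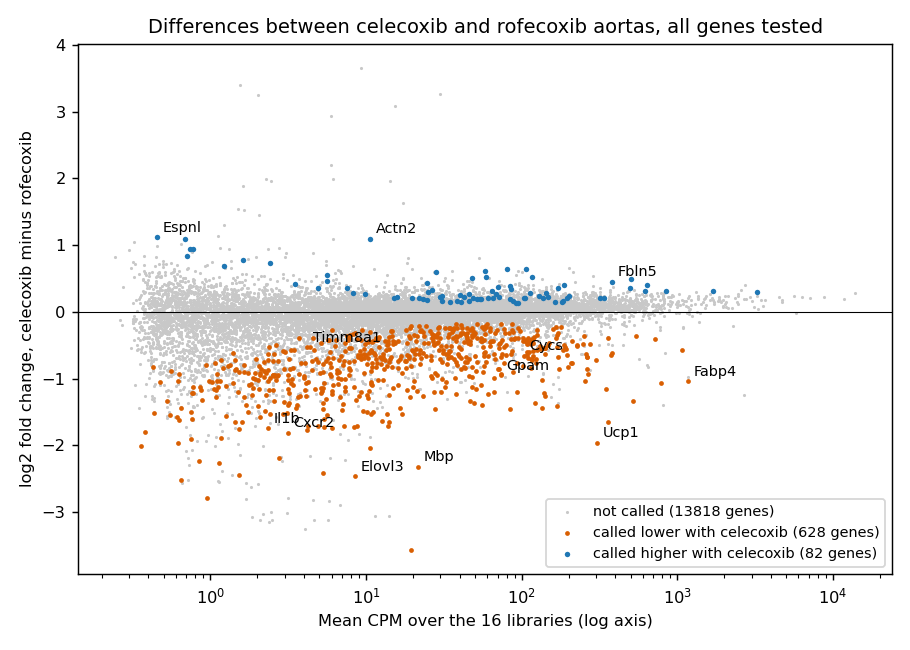
Log2 fold change (celecoxib minus rofecoxib) against mean CPM over the 16 libraries (log axis) for the 14528 genes tested, with called genes in colour. The 628 genes called lower spread to larger differences than the 82 called higher, most of which lie below 1.5-fold.

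The smallest p-value belonged to Timm8a1 (ENSMUSG00000048007, chrX:131071593-131076606, mm9), a chaperone that escorts proteins to the mitochondrial inner membrane. It lay between 2.96 and 3.81 CPM (median 3.54) in the celecoxib libraries and between 4.12 and 5.37 CPM (median 5.01) in the rofecoxib libraries, and the groups did not overlap. Its log2 fold change was -0.53 (SE 0.08, edgeR adjusted p = 0.0181), and with fat and muscle covariates it was -0.41. Controls lay between 3.06 and 4.05 CPM (median 3.75), all below the rofecoxib libraries and most within the celecoxib range. C1qbp, a protein of the mitochondrial matrix, was lower by a smaller margin: 38.5 to 48.8 CPM (median 44.0) against 48.4 to 56.2 CPM (median 54.5), with 7 of 8 celecoxib libraries below every rofecoxib library (log2 fold change -0.29, SE 0.05, edgeR adjusted p = 0.0347). Hint2, another mitochondrial protein, fell by 0.45 on the log2 scale (SE 0.09, edgeR adjusted p = 0.0369). Dynll2 (chr11:87792825-87801237), a light chain of the dynein motor, held 81.2 to 90.8 CPM with celecoxib and 91.8 to 112 CPM with rofecoxib. The groups did not overlap, and the controls, at 92.8 to 106 CPM, lay with rofecoxib. Its log2 fold change was -0.24 (SE 0.04, edgeR adjusted p = 0.0347). Cyb5b, cytochrome b5 of the outer mitochondrial membrane, was 106 to 119 CPM with celecoxib and 121 to 157 CPM with rofecoxib. The peroxisomal acyl-CoA thioesterase Acot8 was 7.35 to 9.27 against 9.67 to 11.03 CPM. Timm8a1, Dynll2, Cyb5b and Acot8 were called lower and separated the groups fully. Dus4l and F5 (coagulation factor V) also separated fully but were not called: their edgeR adjusted p-values were 0.0645 and 0.0781. Cyb5b, Acot8 and Dus4l were chosen for this property after their values were seen.

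**Figure D3:**
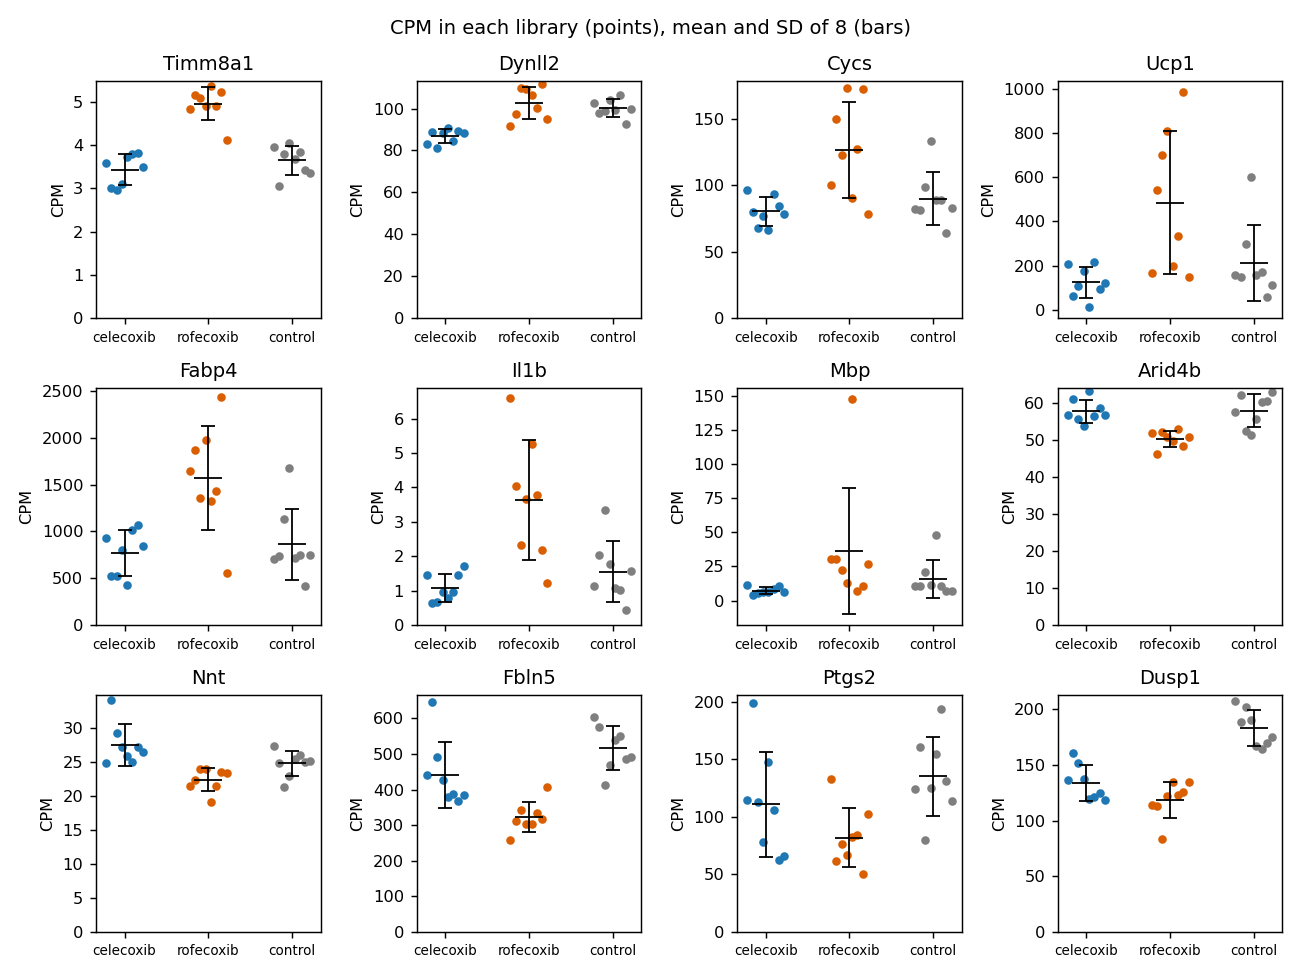
CPM of 12 genes in each celecoxib, rofecoxib and control library (points), with the mean and SD of 8 libraries as bars and each axis on a linear scale. Timm8a1, Dynll2, Arid4b and Nnt show no overlap between the drug groups, while Ucp1, Fabp4, Il1b and Mbp overlap and spread widely among the rofecoxib libraries.

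Genes of the mitochondrial respiratory chain, the inner-membrane complexes that pass electrons from nutrients to oxygen and make ATP, were lower with celecoxib as a group. All 28 members of a fixed list of nuclear-encoded subunits had a log2 fold change below 0, and 23 were called lower (4.32% of all genes tested were called lower). The list's median was -0.47, against 0.01 for all genes tested. The 5 that missed the threshold were Ndufa5, Ndufa9, Sdhc, Cox4i1 and Atp5d. The promoters of called members are shown first because NRF1, a transcription factor known to drive nuclear respiratory genes, binds a GC-rich repeat that can be searched for by its letters. RefSeq (GRCm38.p6) gave a 300-base window, from 250 bases before to 50 bases after the start, for 20 of the 28 genes. The letters GCGCA and GCGC with any 1 base between them, on either strand, occurred in 5 of the 20 (25%) and in 1402 of 27025 genes (5.19%). The 27025 are all genes with such a window, including genes not expressed here, and enrichment was not tested. Overlapping matches were counted, and a match on both strands at 1 place counts once. The windows of the 4 called genes with a match read as follows, 5′ to 3′ on the gene's strand, with matches in capitals.
Atp5c1 promoter, chr2:10080383-10080682, minus strand: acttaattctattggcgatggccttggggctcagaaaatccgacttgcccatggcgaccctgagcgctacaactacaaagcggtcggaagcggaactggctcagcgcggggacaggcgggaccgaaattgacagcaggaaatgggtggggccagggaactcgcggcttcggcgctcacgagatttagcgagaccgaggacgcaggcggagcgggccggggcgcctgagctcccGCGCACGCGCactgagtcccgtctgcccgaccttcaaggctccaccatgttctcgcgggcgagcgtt
Sdhd promoter, chr9:50603800-50604099, minus strand: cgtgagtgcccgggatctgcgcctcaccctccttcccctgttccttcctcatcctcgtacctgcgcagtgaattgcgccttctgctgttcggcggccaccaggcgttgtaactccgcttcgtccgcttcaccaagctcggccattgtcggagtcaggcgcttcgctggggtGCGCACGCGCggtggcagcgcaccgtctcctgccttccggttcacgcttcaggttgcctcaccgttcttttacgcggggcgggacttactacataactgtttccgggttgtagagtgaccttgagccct
Uqcrc1 promoter, chr9:108936398-108936697, plus strand: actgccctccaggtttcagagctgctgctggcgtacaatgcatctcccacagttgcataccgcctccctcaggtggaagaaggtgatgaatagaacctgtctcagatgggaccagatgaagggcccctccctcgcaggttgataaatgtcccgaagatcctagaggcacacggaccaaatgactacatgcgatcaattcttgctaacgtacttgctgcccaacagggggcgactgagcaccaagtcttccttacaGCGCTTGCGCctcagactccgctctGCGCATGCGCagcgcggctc
Sdha promoter, chr13:74350191-74350490, minus strand: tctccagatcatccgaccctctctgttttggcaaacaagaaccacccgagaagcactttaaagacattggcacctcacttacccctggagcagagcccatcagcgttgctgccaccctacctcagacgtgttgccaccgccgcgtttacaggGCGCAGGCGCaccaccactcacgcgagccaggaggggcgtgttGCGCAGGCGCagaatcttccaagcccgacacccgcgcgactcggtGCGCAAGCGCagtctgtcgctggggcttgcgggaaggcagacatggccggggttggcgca
Atp5c1 and Sdhd hold 1 match each, Uqcrc1 holds 2 and Sdha 3. The fifth gene with a match, Ndufa5, was not called. A match describes these letters only and shows no binding.

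Cytochrome c, encoded by Cycs (chr6:50512360-50516739), carries electrons between complexes III and IV. It lay between 66.1 and 96.4 CPM (median 79.4) with celecoxib and between 78.2 and 173 CPM (median 125) with rofecoxib. The 2 groups overlapped, and controls lay between 64.1 and 133 CPM. Cycs had a log2 fold change of -0.65 (95% interval -0.97 to -0.34, edgeR adjusted p = 0.0369). Cyc1, a haem subunit of complex III, was lower by a similar margin, at 79.7 to 143 CPM against 117 to 230 CPM (log2 fold change -0.62, SE 0.16). Among the genes whose promoters are printed above, the succinate dehydrogenase subunits Sdhd (-0.65, SE 0.17) and Sdha (-0.64, SE 0.17) differed most on the log2 scale. Uqcrc1, a core subunit of complex III, came to -0.56 (SE 0.16) and the ATP synthase subunit Atp5c1 to -0.25 (SE 0.07). Sdha held 233 to 379 CPM with celecoxib and 273 to 619 CPM with rofecoxib. Ndufa1, a small subunit of complex I, was 38.5 to 58.4 CPM against 50.9 to 82.7 CPM, with 7 of 8 celecoxib libraries below every rofecoxib library. Sdha, Uqcrc1 and Atp5c1 were chosen after their values were seen, because a match lay in their promoters. Against controls, the list's median was -0.10 with celecoxib and 0.40 with rofecoxib, as values from 2 comparisons that share the 8 control libraries. Fat markers were lower with celecoxib as well, so the parts of fat level and drug could not be told apart. With adipocyte and muscle levels as covariates the list's median was -0.09, and no member was called.

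Adipocyte genes were lower with celecoxib. Of 18 general adipocyte markers, 10 were called lower and 0 higher, with a median log2 fold change of -1.19. Of 16 brown adipocyte markers, 15 passed the filter on low counts; 6 of them were called lower and 0 higher, and the median was -1.27. Fabp4 (chr3:10204145-10208778), the fatty acid carrier of fat cells and capillaries, lay between 432 and 1073 CPM (median 820) with celecoxib and between 557 and 2432 CPM (median 1538) with rofecoxib. Controls lay between 415 and 1682 CPM, and the lowest rofecoxib library was replicate 8. For Fabp4 the log2 fold change came to -1.04 (SE 0.26, edgeR adjusted p = 0.0372). Lpl, lipoprotein lipase, was 121 to 487 CPM against 213 to 1096 CPM, with a log2 fold change of -1.33 (SE 0.31). Plin1, which coats lipid droplets, was 13.2 to 53.1 CPM against 25.5 to 123 CPM (-1.40, SE 0.34). In these 3 genes the rofecoxib group had the higher median and the wider spread. Ucp1 (chr8:85814045-85822557), the uncoupling protein that makes heat in brown fat, was 11.1 to 215 CPM (median 115) with celecoxib and 151 to 986 CPM (median 438) with rofecoxib. Its log2 fold change was -1.96 (95% interval -3.02 to -0.90, edgeR adjusted p = 0.0383), and 5 of 8 celecoxib libraries lay below every rofecoxib library. Elovl3, a fatty acid elongase of brown fat, was at 0.387 to 4.46 CPM against 1.45 to 33.3 CPM (log2 fold change -2.46, SE 0.69). Otop1, a proton channel, fell by 1.71 and Cpn2 by 1.73 on the log2 scale, and Fabp3, a fatty acid carrier of oxidative tissues, came to -1.004. With adipocyte and muscle covariates the list medians were -0.03 for general and -0.09 for brown adipocyte markers. The general list is itself that covariate. Against controls, its median was -0.35 with celecoxib and 0.74 with rofecoxib.

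Enzymes that build fatty acids and triglycerides had the same direction. Of 21 genes, all 21 were below 0 and 10 were called lower, with a median log2 fold change of -0.81. Gpam, which starts glycerolipid synthesis, was 35.8 to 71.2 CPM (median 52.5) with celecoxib and 47.0 to 127 CPM (median 99.4) with rofecoxib (log2 fold change -0.95, SE 0.20, edgeR adjusted p = 0.0369). Pnpla3, a lipid droplet protein, was 7.98 to 56.6 CPM against 29.7 to 113 CPM (-1.36, SE 0.33). The groups overlapped in both. Dgat1, which adds the last acyl chain of triglyceride, was 21.6 to 38.5 CPM against 28.5 to 69.0 CPM (-0.75, SE 0.18). Srebf1, the transcription factor of fatty acid synthesis, was 78.8 to 117 CPM against 109 to 169 CPM, with 6 of 8 celecoxib libraries below every rofecoxib library (-0.38, SE 0.10). In replicates 1 to 4 alone its log2 fold change was -0.63, and in replicates 5 to 8 alone -0.09. The list's median was -1.10 and -0.46 in these sets, and with fat and muscle covariates it was -0.08.

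A further list joined genes of fatty acid oxidation, the breakdown of acyl chains in mitochondria and peroxisomes, with targets of the PPAR nuclear receptors. Of 27 genes tested, 15 were called lower and 1 higher, with a median log2 fold change of -0.86. Ehhadh (chr16:21761158-21788119), a bifunctional enzyme of peroxisomal oxidation, was 11.2 to 16.02 CPM (median 13.6) with celecoxib and 13.7 to 36.8 CPM (median 21.9) with rofecoxib. Controls, at 9.72 to 16.8 CPM, lay with celecoxib. Its log2 fold change was -0.73 (SE 0.16, edgeR adjusted p = 0.0369). The mitochondrial carnitine carrier Slc25a20 was 17.6 to 49.3 CPM against 30.7 to 111 CPM (-1.10, SE 0.26). The acyl-CoA thioesterases Acot1 and Acot2 were lower than with rofecoxib by 1.15 (SE 0.27) and 0.91 (SE 0.21) on the log2 scale. Against controls, Acot1 and Acot2 were at -0.12 and -0.07 with celecoxib and at 1.02 and 0.84 with rofecoxib. They are near-identical copies, and no source used here says how reads were shared between them. With fat and muscle covariates the list's median was -0.06. Against controls, the list's median was -0.17 with celecoxib and 0.65 with rofecoxib. Aldh9a1, which makes a precursor of carnitine, was among the called genes with the smallest p-values: 15.4 to 24.3 CPM against 21.5 to 39.7 CPM (-0.66, SE 0.12, edgeR adjusted p = 0.0347).

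**Figure D4:**
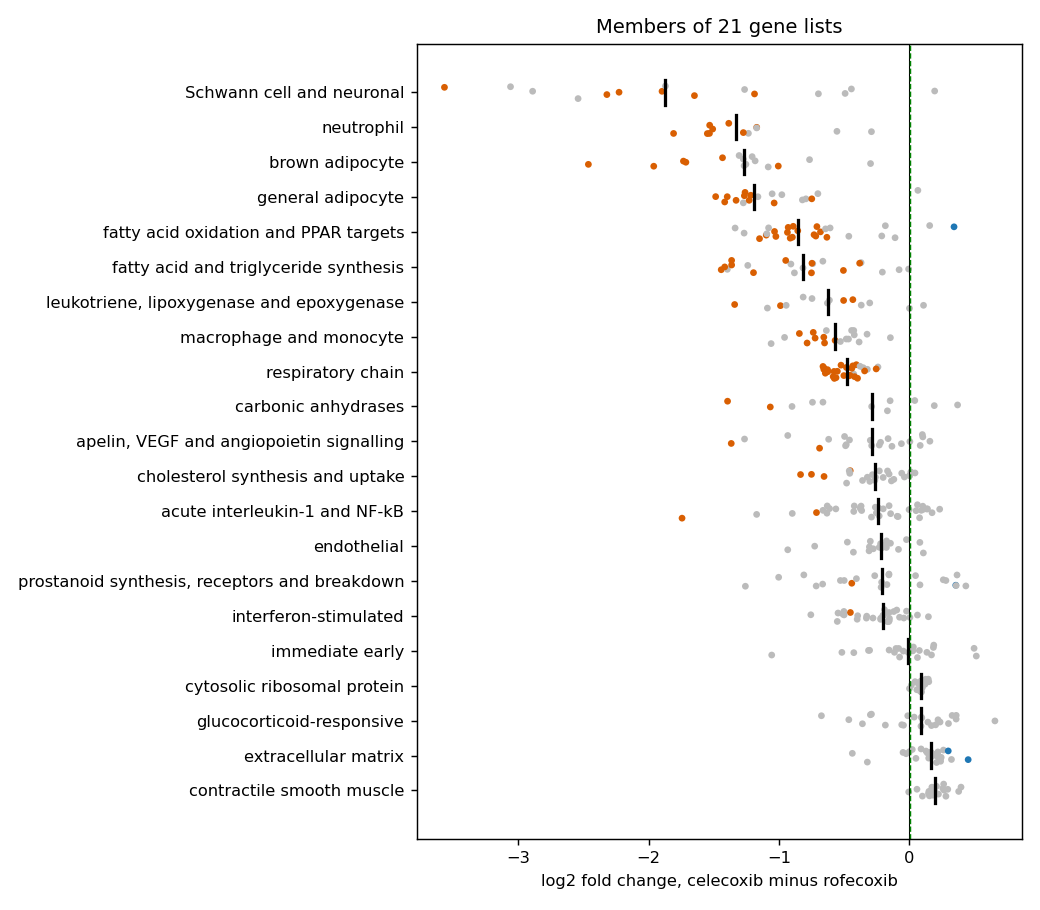
Log2 fold change (celecoxib minus rofecoxib) of every tested member of 21 gene lists, with called members in colour, list medians as black bars and the median of all genes tested (0.01) as a dashed line. All 28 respiratory chain genes lie below 0 within a narrow range (median -0.47). The fat, neutrophil, and Schwann cell and neuronal lists spread further, and the medians of the smooth muscle and matrix lists sit above 0.

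Myeloid genes were lower with celecoxib. Of 16 neutrophil genes, 12 passed the filter on low counts and 8 were called lower (median log2 fold change -1.33). The defining granule genes Mpo, Elane and Camp and the surface marker Ly6g were among the 4 that did not pass. Of 19 macrophage and monocyte genes tested, all 19 were below 0 and 7 were called lower (median -0.57). Il1b (chr2:129190104-129197077), which encodes the same cytokine that was injected, was 0.633 to 1.73 CPM (median 0.955) with celecoxib, 1.22 to 6.59 CPM (median 3.73) with rofecoxib and 0.429 to 3.36 CPM (median 1.35) in controls. Of the 8 rofecoxib libraries, 5 were above every control library, and replicate 8 had the lowest rofecoxib value. The log2 fold change was -1.74 (95% interval -2.45 to -1.03, edgeR adjusted p = 0.0369). Cxcr2, the neutrophil receptor for CXC chemokines, was 0.387 to 2.32 CPM against 1.73 to 10.4 CPM (-1.81, SE 0.41), with 6 of 8 celecoxib libraries below every rofecoxib library. Csf3r, the receptor for granulocyte colony-stimulating factor, came to -1.38 (SE 0.33) and S100a8, a cytosolic protein of neutrophils, to -1.53 (SE 0.37). The gelatinase Mmp9 fell by 1.17 on the log2 scale. Other genes were named for their small p-values and belong to no list. The actin bundler Lcp1 was 11.7 to 26.3 CPM against 20.5 to 59.6 CPM (-0.95, SE 0.17, edgeR adjusted p = 0.0347). The chemokine receptor Ccr1 fell by 1.10, the formin Fmnl1 by 1.21 and pleckstrin, Plek, by 0.68 on the log2 scale.

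Among macrophage genes, Csf1r, the receptor that sustains the lineage, was 9.83 to 19.1 CPM with celecoxib and 12.6 to 29.3 CPM with rofecoxib (log2 fold change -0.65, SE 0.15, edgeR adjusted p = 0.0369). Mrc1, the mannose receptor of resident macrophages, was 25.3 to 60.1 CPM against 35.6 to 90.2 CPM (-0.66, SE 0.17). The lysosomal marker Cd68 fell by 0.72, the antigen-loading subunit H2-DMa by 0.85 and Cybb, the catalytic subunit of the phagocyte oxidase, by 0.78 on the log2 scale. H2-DMa was the only called gene of 8 tested in the class II list (4.89% of all genes tested were called). In each of these 5 genes the 2 groups overlapped. Against controls, the neutrophil median was -0.84 with celecoxib and 0.53 with rofecoxib, and the macrophage median -0.20 and 0.38. The fat level and the drug move together here, so their parts could not be told apart. With fat and muscle covariates, the neutrophil and macrophage medians between the drugs were -0.53 and -0.08. In replicates 1 to 4 alone they were -1.79 and -0.87, and in replicates 5 to 8 alone -0.76 and -0.32.

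A list of genes of neurons and of Schwann cells, which build the myelin of peripheral nerves, showed the largest median of the 21 lists plotted, -1.87. Of its 15 genes, 6 were called lower and 0 higher by edgeR. DESeq2 called 9 lower and limma voom 1. Mbp, a structural protein of myelin, was 3.89 to 11.1 CPM (median 6.12) with celecoxib and 7.15 to 148 CPM (median 24.6) with rofecoxib. The highest value belonged to rofecoxib replicate 5, and the next rofecoxib library stood at 30.83 CPM. The groups overlapped, with 5 of 8 celecoxib libraries below every rofecoxib library, and controls ranged from 7.10 to 47.9 CPM. For Mbp the log2 fold change was -2.32 (SE 0.53, edgeR adjusted p = 0.0369), and -1.48 without rofecoxib replicate 5. S100b, a calcium-binding protein of glia that fat cells also make, was 4.49 to 14.2 CPM with rofecoxib and 2.47 to 6.78 CPM with celecoxib (-1.19, SE 0.25). Without rofecoxib replicate 5 the list's median was -0.60. The fat and muscle covariates left it at -1.83.

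Of 21 genes of the apelin, VEGF and angiopoietin pathways, which guide vessel growth, 2 were called lower and 0 higher (median log2 fold change -0.29). Over all genes tested, 4.32% were called lower and 0.564% higher. Aplnr (chr2:84976315-84980281), the apelin receptor, was 1.64 to 4.50 CPM (median 2.59) with celecoxib, 2.62 to 13.7 CPM (median 6.69) with rofecoxib and 1.27 to 3.94 CPM (median 2.30) in controls. Of the 8 rofecoxib libraries, 7 were above every celecoxib and control library, and the other one was replicate 8. The log2 fold change was -1.37 (95% interval -1.98 to -0.75, edgeR adjusted p = 0.0369), and with fat and muscle covariates -0.78. Nrp2, a co-receptor for VEGF-C and semaphorins, was 19.3 to 34.6 CPM against 26.1 to 57.7 CPM (-0.69, SE 0.15). Controls, at 18.8 to 30.3 CPM, lay with celecoxib. Of 20 general endothelial genes none was called by edgeR, 2 were called lower by DESeq2 and 1 by limma voom, and 7 had an unadjusted p under 0.05. Their median was -0.22, and 0.10 with the fat and muscle covariates.

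Genes higher with celecoxib were fewer and differed by less. Nnt (chr13:120124053-120198006), the mitochondrial transhydrogenase that makes NADPH, was 24.9 to 34.1 CPM (median 26.8) with celecoxib and 19.1 to 23.9 CPM (median 22.8) with rofecoxib. The chromatin factor Arid4b (chr13:14155297-14292072) was 53.8 to 63.2 CPM against 46.2 to 52.8 CPM. These were the only 2 genes whose celecoxib libraries all lay above the rofecoxib libraries. Their log2 fold changes were 0.30 (SE 0.06) and 0.20 (SE 0.05), each with an edgeR adjusted p of 0.0369. Espnl, an espin-like actin protein, had the largest log2 fold change of the 82 genes called higher: 0.412 to 0.910 CPM against 0.187 to 0.418 CPM (1.12, SE 0.21, edgeR adjusted p = 0.0347). Controls held 0.744 to 1.37 CPM, above the whole rofecoxib range. The signalling adaptor Grap was 66.8 to 105 CPM against 54.2 to 71.4 CPM (0.37, SE 0.08), and the dynein adaptor Bicd1 50.4 to 92.9 CPM against 41.7 to 55.7 CPM (0.52, SE 0.11). Wdr44 and Spata7 were higher by 0.26 and 0.37 on the log2 scale. Iqgap3, a scaffold of dividing cells, was higher by 0.68 (SE 0.16), and the mitotic cyclin Ccnb1 by 0.95 (SE 0.24). Ccnb1 was the 1 called gene of 20 tested in the cell cycle list (0.564% of all genes tested were called higher). Ccnb1 lay between 0.332 and 1.31 CPM with celecoxib and between 0.224 and 0.709 CPM with rofecoxib.

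Of 28 extracellular matrix genes, 2 were called higher and 0 lower (0.564% and 4.32% of all genes tested). Their median log2 fold change was 0.17. Fbln5 (chr12:102984573-103057467), which helps assemble elastic fibres, was 367 to 647 CPM (median 408) with celecoxib, 257 to 407 CPM (median 315) with rofecoxib and 414 to 605 CPM (median 515) in controls. The celecoxib median thus lay between those of the other groups, with overlap on both sides, and the highest celecoxib library was replicate 2. The log2 fold change was 0.45 (SE 0.11, edgeR adjusted p = 0.0369), 0.36 without celecoxib replicate 2, 0.73 in replicates 1 to 4 and 0.16 in replicates 5 to 8. Sparc, a collagen-binding matricellular protein, was 3044 to 4843 CPM against 2408 to 3342 CPM (0.30, SE 0.09, edgeR adjusted p = 0.0496). It kept its call in 3 of the 24 fits that left out 1 library. Has3, a hyaluronan synthase, was 38.8 to 80.8 CPM with celecoxib, 27.8 to 54.3 CPM with rofecoxib and 50.4 to 80.2 CPM in controls (log2 fold change 0.50, SE 0.15). Vstm4, a secreted immunoglobulin-domain protein, was higher by 0.62 (SE 0.14). Against controls, Vstm4 was at -0.11 with celecoxib and -0.73 with rofecoxib. Contractile smooth muscle genes were above 0 in 17 of 18 cases with a median of 0.20, and none was called by edgeR, although 10 had an unadjusted p under 0.05, DESeq2 called 4 higher and limma voom 1. With fat and muscle covariates that median was 0.02. The 20 cytosolic ribosomal protein genes were all above 0, with a median of 0.09 and 0 called by edgeR or limma voom. DESeq2 called 2 of them higher, and 4 were at an unadjusted p under 0.05.

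Some larger rises changed in size with the libraries fitted. Actn2, the alpha-actinin of sarcomeres, was 5.78 to 46.3 CPM (median 9.93) with celecoxib and 4.73 to 9.08 CPM (median 6.56) with rofecoxib. The highest value was in celecoxib replicate 2, which also had the highest skeletal and cardiac muscle level of its group. For Actn2 the log2 fold change came to 1.10 (SE 0.31, edgeR adjusted p = 0.0444), and 0.57 without that library. Rasl11b, a small GTPase, was 51.8 to 141 CPM against 39.4 to 97.4 CPM (log2 fold change 0.65), with 1.11 in replicates 1 to 4 and 0.13 in replicates 5 to 8. The stress-induced sestrin Sesn1 was 80.7 to 165 CPM against 67.0 to 112 CPM, with 7 of 8 celecoxib libraries above every rofecoxib library (0.53, SE 0.14). Bdnf, a neurotrophin, was 4.31 to 8.61 CPM against 2.64 to 6.07 CPM (0.56, SE 0.16), with 0.89 in replicates 1 to 4 and 0.22 in replicates 5 to 8. Its call was kept in 7 of the 24 fits that left out 1 library.

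The prostanoid pathway is the one on which both drugs act. Of 23 genes tested, 1 was called higher and 1 lower by edgeR (0.564% and 4.32% of all genes tested). The list's median log2 fold change was -0.21. DESeq2 called 1 higher and 6 lower, and limma voom 0 and 1. Pla2g4a, the cytosolic phospholipase that frees arachidonic acid, was the one higher: 158 to 241 CPM (median 189) with celecoxib, 115 to 181 CPM (median 148) with rofecoxib and 153 to 230 CPM in controls (log2 fold change 0.36, SE 0.11, edgeR adjusted p = 0.0496). Pla2g4a kept its call in 8 of the 24 fits that left out 1 library, and it was 0.20 with fat and muscle covariates. The lower one was Ptges2, a prostaglandin E synthase of membranes, at 13.6 to 20.9 CPM against 17.9 to 29.6 CPM (-0.44, SE 0.12, edgeR adjusted p = 0.0387). With the same covariates Ptges2 was -0.08. Ptgs2 (chr1:151947052-151955342), which encodes the target enzyme itself, was 62.2 to 199 CPM (median 109) with celecoxib, 50.7 to 133 CPM (median 79.2) with rofecoxib and 79.9 to 194 CPM (median 128) in controls. The groups overlapped in 6 of 8 celecoxib libraries. Its log2 fold change was 0.43 with a 95% interval of -0.02 to 0.89 (edgeR adjusted p = 0.245). With fat and muscle covariates it was 0.05. Against controls Ptgs2 was at -0.29 with celecoxib and -0.72 with rofecoxib. Ptgs1, the constitutive enzyme, was 4.68 to 13.7 CPM against 5.94 to 12.0 CPM (-0.17, interval -0.52 to 0.18).

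The other downstream enzymes and receptors shown here did not pass the threshold by edgeR. Ptgis, prostacyclin synthase, was 683 to 1158 CPM (median 916) with celecoxib and 608 to 899 CPM (median 760) with rofecoxib (log2 fold change 0.28, interval 0.07 to 0.49, edgeR adjusted p = 0.0928). It was 0.53 when replicates 1 to 4 alone were fitted and 0.01 for replicates 5 to 8. Ptges, the inducible prostaglandin E synthase, was 15.3 to 29.5 CPM against 17.8 to 56.0 CPM (-0.66, interval -1.09 to -0.23, edgeR adjusted p = 0.0594). Tbxas1, thromboxane synthase, was 0.716 to 1.68 CPM against 0.796 to 3.63 CPM (-0.81, interval -1.32 to -0.30). The prostaglandin D synthase Ptgds was near the floor, at 0.0916 to 0.438 CPM against 0.0936 to 1.15 CPM (-1.26, interval -2.12 to -0.39, edgeR adjusted p = 0.0704). The prostacyclin receptor Ptgir, at -0.22, had an interval of -0.69 to 0.26, and the thromboxane receptor Tbxa2r, at 0.26, one of 0.00 to 0.52. These intervals hold for single genes and are not adjusted for the number tested.

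Neighbouring eicosanoid routes had 4 of 14 genes called lower and 0 higher (4.32% and 0.564% of all genes tested). Their median was -0.62. Cysltr1, a receptor for cysteinyl leukotrienes, was 0.0478 to 0.604 CPM (median 0.335) with celecoxib and 0.328 to 1.21 CPM (median 0.733) with rofecoxib (log2 fold change -1.34, SE 0.31, edgeR adjusted p = 0.0369). Ephx2, the soluble epoxide hydrolase that inactivates epoxides of arachidonic acid, was 31.6 to 62.1 CPM against 30.2 to 121 CPM (-0.99, SE 0.24). No celecoxib library of Ephx2 lay outside the rofecoxib range. Mgll, which breaks down the endocannabinoid 2-arachidonoylglycerol, was 169 to 214 CPM against 183 to 325 CPM (-0.50, SE 0.10). The epoxygenase Cyp2j6 fell by 0.43 on the log2 scale, by 0.74 in replicates 1 to 4 and by 0.12 in replicates 5 to 8. With fat and muscle covariates the list's median was -0.07.

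Carbonic anhydrases, zinc enzymes that hydrate carbon dioxide, include proteins that bind sulfonamides such as celecoxib. Of 16 genes 11 passed the filter on low counts, and 2 were called lower and 0 higher (4.32% and 0.564% of all genes tested). Car2 (chr3:14886224-14900971) was 0.290 to 1.61 CPM (median 0.823) with celecoxib, 0.843 to 3.72 CPM (median 2.28) with rofecoxib and 0.524 to 2.84 CPM in controls. For Car2 it came to -1.39 on the log2 scale (SE 0.32, edgeR adjusted p = 0.0369), and -0.32 with fat and muscle covariates. Car3, the abundant isoform of fat cells, was 233 to 746 CPM against 330 to 2090 CPM (-1.07, SE 0.31, edgeR adjusted p = 0.0464). With fat and muscle covariates Car3 changed sign, to 0.09. The median of the 11 genes was -0.29.

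Sterol synthesis genes had 4 of 25 called lower and 0 higher (4.32% and 0.564% of all genes tested). Their median was -0.26. The 4 were Hsd17b7, Dhcr7, Acat2 and Lpin1, of which the last belongs to glycerolipid synthesis. Hsd17b7 (chr1:171879464-171899574), a reductase of the late pathway, was 7.62 to 11.6 CPM (median 8.81) with celecoxib, 8.73 to 15.6 CPM (median 12.0) with rofecoxib and 5.82 to 7.76 CPM (median 6.78) in controls. The 3 groups were thus ordered control, celecoxib, rofecoxib by their medians, with all 8 rofecoxib libraries above all 8 controls. Its log2 fold change was -0.45 (SE 0.11, edgeR adjusted p = 0.0369), and -0.40 with fat and muscle covariates. Dhcr7, the last enzyme of cholesterol synthesis, was 1.35 to 3.84 CPM against 2.48 to 5.80 CPM (-0.83, SE 0.21). Acat2, the cytosolic thiolase, was 22.3 to 41.2 CPM against 25.3 to 69.2 CPM (-0.65, SE 0.17). Cyp51, lanosterol demethylase, did not pass: 23.2 to 39.6 CPM against 28.4 to 48.0 CPM (-0.26, interval -0.49 to -0.04, edgeR adjusted p = 0.144). Its controls held 18.5 to 26.0 CPM.

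Called genes of the acute response to the injected cytokine were about as frequent as among all genes tested (4.89%). Of 36 acute IL-1 and NF-kB genes, 2 were called lower (Il1b, above, and Il1rn) and 0 higher, and 5 had an unadjusted p under 0.05 (median log2 fold change -0.24). Il1rn, the receptor antagonist, was 1.72 to 4.19 CPM against 2.25 to 5.63 CPM (-0.71, SE 0.19, edgeR adjusted p = 0.0397). For the classical targets the intervals were wide. Il6 was 9.33 to 56.5 CPM (median 15.0) with celecoxib, 10.4 to 124 CPM (median 36.1) with rofecoxib and 25.8 to 114 CPM in controls (-0.90, interval -1.94 to 0.14). The chemokine Cxcl1 was 102 to 950 CPM against 77.2 to 1062 CPM (-0.37, interval -1.51 to 0.76), and without rofecoxib replicate 5 its log2 fold change was 0.01. Ccl2, the monocyte chemokine, came to -0.56 with an interval of -1.34 to 0.22, and the adhesion molecule Icam1 to 0.23 with an interval of -0.31 to 0.78. A difference of 1.5-fold or more in either direction lay inside the interval for Cxcl1. Of 31 interferon-stimulated genes, 1 was called lower and 0 higher. The list's median had opposite signs in replicates 1 to 4 (-0.65) and in replicates 5 to 8 (0.13).

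None of 23 glucocorticoid-responsive genes and none of 23 immediate early genes was called by edgeR, with 5 and 4 at an unadjusted p under 0.05 and medians of 0.09 and -0.01. DESeq2 called 1 lower in each list and limma voom 0. Dusp1 (chr17:26642333-26645666), a phosphatase that switches off MAP kinases, was 118 to 161 CPM (median 131) with celecoxib, 83.8 to 135 CPM (median 123) with rofecoxib and 164 to 207 CPM (median 182) in controls. Every drug library lay below every control library. Between the drugs the log2 fold change was 0.17 (interval -0.00 to 0.34, edgeR adjusted p = 0.222). Ddit4, an inhibitor of the mTOR pathway, was 19.7 to 49.2 CPM against 22.9 to 71.1 CPM (-0.36, interval -0.81 to 0.09). Klf2, a flow-responsive endothelial transcription factor, was 42.0 to 73.4 CPM against 37.6 to 68.7 CPM (0.24, interval -0.01 to 0.49). Zbtb16, a glucocorticoid-induced transcription factor, was 97.6 to 367 CPM (median 268) with celecoxib, 61.7 to 256 CPM (median 168) with rofecoxib and 265 to 354 CPM in controls. It was not called (0.66, interval 0.15 to 1.16, edgeR adjusted p = 0.103).

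Of 20 drug-metabolism genes tested, 1 was called higher and 3 lower (0.564% and 4.32% of all genes tested). The higher one was Gstm1, a glutathione transferase, at 299 to 401 CPM against 258 to 328 CPM (log2 fold change 0.20, SE 0.06, edgeR adjusted p = 0.0425). Ces1d, a carboxylesterase of fat and liver, was 33.7 to 130 CPM against 57.3 to 283 CPM (-1.26, SE 0.32), and -0.01 with fat and muscle covariates. Hspd1, the mitochondrial chaperonin, was the 1 called gene of 16 in the heat shock list: 156 to 200 CPM against 182 to 324 CPM (-0.44, SE 0.10, edgeR adjusted p = 0.0369). Rora, a nuclear receptor of the clock, was the 1 called gene of 19 in the circadian list, at 40.0 to 60.9 CPM with celecoxib and 35.8 to 48.5 CPM with rofecoxib (0.26, SE 0.08, edgeR adjusted p = 0.0492).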

How the data were processed

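RNA from thoracic aortas was made into poly(A)-selected TruSeq libraries with 13 PCR cycles over 3 days, per the labels' protocols; the day of each library is not given. Per the submitters' processing notes, CASAVA 1.8.1, STAR 2.5.1b and the mm9 build were used. The deposited table holds counts for 25941 genes, 805 of them with no read, and coordinates; the counting program, annotation, strand setting and the reason that totals are nearly equal are not given in the sources used here. Mitochondrially encoded transcripts were not analysed here, and some genes that the naming rule below gives are not reported here.

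Genes passed edgeR's filterByExpr over all 24 libraries, and counts were TMM-scaled. Groups were compared with edgeR 4.0.16 (R 4.3.3) by glmQLFit and glmQLFTest, 2-sided, with 1 mean per group and Benjamini-Hochberg adjustment. CPM use TMM library sizes. Counts were simulated for each gene separately from its real mean and spread, and 50 genes were changed at each size in the celecoxib group. The simulation held no variation that genes share between libraries, such as the fat level. Of those changed 1.25-, 1.5-, 2- and 3-fold, 40%, 74%, 90% and 98% were recovered, with 6 false calls. Whether these rates hold for the deposited libraries was not tested. Libraries of a group differed by a chi-square of 8.89 or more per degree of freedom in all 84 pairs, so none was counted as a duplicate. The series' design text calls the 8 samples of a group biological replicates.

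The text names the 12 called genes with the smallest p and the 12 with the largest change in each direction (the last at a mean of at least 1 CPM), up to 4 members of each of 43 gene lists, and fixed genes of the prostanoid, cytokine, fat and carbonic anhydrase groups; not all are printed. Members and lists were chosen with earlier results of these data known. Of 851 list symbols 850 matched 1 gene. No gene list was tested as a set. Alternatives were other scaling (RLE, library size alone), other filters, DESeq2 1.42.0, limma 3.58.1 (voom with sample weights), the 16 drug libraries alone, a replicate block, a term for replicates 1 to 4 against 5 to 8, marker covariates, and leaving out each library. A further 4 were chosen after seeing the data: adipocyte, Schwann cell and neutrophil covariates, replicates 1 to 4 alone, replicates 5 to 8 alone, and all libraries but rofecoxib 5 and 8.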

Additional observations from a re-analysis of the deposited data

Results flagged for a closer look

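Single libraries lay far from the other 7 of their group (the gap to the nearest, as a share of the group's range, was above Dixon's 95% critical value for 8 samples) in 36 of 333 sets of 8 values. Chance gives about 1 in 20. Control libraries held 20 of the 36, rofecoxib libraries 9 and celecoxib libraries 7. The sets share libraries and move together, so the 36 are not independent.

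Control replicate 4 was high in genes of fat and mitochondria: Ucp1 602.5 CPM, Elovl3 25.87, Lpl 787.2, Plin1 103.7, Dgat1 71.0, Car2 2.838, Car3 1313, Ephx2 85.52, Acat2 53.6, Srebf1 140.3, Cyc1 202.8, Sdhd 146.7, Cyb5b 136.4, Aldh9a1 34.48, Ptges2 26.38 and Cd68 8.049 CPM. It does not enter the contrast between the drugs directly, and without it 1023 genes were called. Other control libraries stood apart in 1 or 2 values each: replicate 5 in Mbp (47.92 CPM), replicate 3 in Gstm1 (314.8 CPM) and the skeletal and cardiac muscle level (2.522), and replicate 8 in F5 (4.319 CPM).

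Rofecoxib replicate 5 was high in Mbp (148.3 CPM), Il6 (124.5 CPM) and Ccl2 (220.0 CPM). Rofecoxib replicate 8 was low in Timm8a1 (4.119 CPM), the general adipocyte level (5.812) and the T, B and mast cell level (0.9429). Rofecoxib replicate 2 was high in Cyp51 (47.99 CPM) and Dus4l (7.753 CPM), and replicate 3 low in Dusp1 (83.79 CPM). Celecoxib replicate 2 was high in Nnt (34.12 CPM), Fbln5 (647.4 CPM), Sparc (4843 CPM), Actn2 (46.29 CPM) and the skeletal and cardiac muscle level (2.597). Celecoxib replicate 5 was low in the brown adipocyte level (1.832) and replicate 6 high in Cxcl1 (949.5 CPM).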

How the results depend on the processing

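The 3 counts of the comparison (710 called, 82 higher, 628 lower) ran from 0 to 1997, 0 to 528 and 0 to 1469 when each of the 24 libraries was left out in turn. No gene was called with no filter on low counts (4367 at an unadjusted p under 0.05 by edgeR), with only the 16 drug libraries (2816), with adipocyte and skeletal muscle covariates (578), with adipocyte, Schwann cell and neutrophil covariates (548), or with replicates 5 to 8 alone (896). DESeq2 called 1439 (318 higher, 1121 lower), replicates 1 to 4 alone 2073 (651, 1422), and all libraries but rofecoxib 5 and 8 gave 1712 (373, 1339). Genes called higher numbered 46 with library size alone, 126 with limma voom and 158 with a term for replicates 1 to 4 against 5 to 8. The cause of these shifts was not tested. With 1 library fewer, a group has 7 samples.

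A replicate block called 0 genes, with 3169 at an unadjusted p under 0.05. Same-numbered celecoxib and rofecoxib libraries correlated between -0.17 and 0.48 in their deviations from the group means. Only numbers 4 and 7 correlated best with their own number. This check cannot tell whether a number marks a pair or a batch, and the day of each library is not given.

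Of the 710 called genes, 665 kept their sign in all alternatives that tested them. Of the genes in the text and the plotted lists with a called member, these changed sign, as log2 fold changes. With adipocyte and muscle covariates: Car3 0.089, Icam1 -0.026, Ptgs1 0.035 and the apelin list 0.012. With adipocyte, Schwann cell and neutrophil covariates: Car3 0.15, Ddit4 0.052, Ptges 0.039, Ptgs1 0.088, the acute IL-1 list 0.0029, the apelin list 0.029 and the carbonic anhydrase list 0.12. With replicates 5 to 8 alone: Ddit4 0.14, Dusp1 -0.093, Ptgir 0.040, Ptgs1 0.18 and the interferon list 0.13. Without any 1 library Cxcl1 ran from -0.86 (celecoxib replicate 6 left out) to 0.0068 (rofecoxib replicate 5 left out), and it was 0.018 without rofecoxib 5 and 8. Medians of other lists changed sign too, and not all are given here. Endothelial was 0.098 and 0.17 and drug metabolism 0.064 and 0.060 with the 2 sets of covariates. With replicates 5 to 8 alone, drug metabolism was 0.074 and heat shock -0.28. With adipocyte, Schwann cell and neutrophil covariates, MHC class II was 0.024 and contractile smooth muscle -0.0031. DESeq2 called more genes lower in the brown adipocyte (13 against 6), fatty acid synthesis (17 against 10), sterol (8 against 4), apelin (5 against 2) and prostanoid (6 against 1) lists. Limma voom called 1 Schwann cell and neuronal gene lower against 6, 4 apelin genes against 2 and 1 carbonic anhydrase against 2. Genes near or below 1 CPM, such as Espnl, Cysltr1 and Ptgds, rest on few counts.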
